A study of Helianthemum marifolium subsp. andalusicum and Helianthemum marifolium subsp. marifolium and Helianthemum marifolium subsp. molle with 16 samples.

Results

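The transcripts described here were those counted at a lower level in leaves of Helianthemum marifolium subsp. marifolium than in leaves of any other subspecies of the species. They were chosen by their own read counts. Counts were expressed as counts-per-million (CPM), each count divided by the total of its library, and a transcript was taken where its mean over the 16 libraries was at least 1 CPM and its highest marifolium library lay below the lowest of the 12 other libraries. The rule took 149 of 100462 counted clusters of assembled transcripts, of which 32213 reached the mean of 1 CPM. In 34 of the 149 all 4 marifolium libraries had 0 counts, and these are called absent transcripts. The other 115 had counts in at least 1 marifolium library and are called reduced transcripts. Because the rule used marifolium against the other subspecies, values of that contrast are given as a description, with no test.

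Helianthemum marifolium is a dwarf shrub of the rockrose family, the Cistaceae. The study profiled poly-A RNA, mostly messenger RNA, from adult leaves of its 4 subspecies, with 4 libraries each of marifolium, andalusicum, molle and origanifolium, the last of which stands under the organism name Helianthemum origanifolium in its labels. All plants were raised from seed in a greenhouse at 22 °C by night and 25 °C by day, and leaves near the shoot tip were taken 446 days after sowing. Each subspecies has 2 title codes of 2 libraries, 085 (marifolium 12 and 15) and 089 (marifolium 17 and 18) in marifolium, and the labels give no meaning for the codes. Whether each library is a plant of its own is not stated, and p-values cover only the variation seen between libraries.

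Related plant lineages are known to differ both in how strongly they transcribe a shared gene and in which genes they carry or transcribe at all. Where a transcriptome is assembled without a genome, alleles or splice forms of 1 gene can be assembled as separate transcripts and counted under separate clusters. The files pair each cluster with names given by the assembler and with no gene name or function, so these transcripts are described by level, length and pattern, and leaf marker genes could not be looked up. In bulk leaf RNA, fewer cells of a type and less RNA per cell cannot be told apart. Within each kind the transcripts are numbered by their mean CPM over the 12 other libraries, from absent 1 to absent 34 and from reduced 1 to reduced 115. CPM is not divided by transcript length, so this order ranks shares of reads, not numbers of molecules.

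The 149 transcripts made up 0.463% of the clusters with a mean of at least 1 CPM, and the 34 absent ones 0.106%. By the same rule 144 clusters (0.447%) were lowest in andalusicum, 136 (0.422%) in molle and 148 (0.459%) in origanifolium, so the number lowest in marifolium was close to those of the other subspecies. Of those clusters 16 had 0 counts throughout andalusicum, 12 throughout molle and 2 throughout origanifolium, against 34 throughout marifolium. These counts describe the 4 lists, and their difference was not tested. Library totals ran from 22170314 to 34121011 counts, with 29339551 to 31588345 in marifolium, so a count of 0 allows up to 0.102 CPM in the shallowest marifolium library and up to 0.0246 CPM over the 4 together, for counting error only. Marifolium 12 and 18 had 1.60% and 2.52% of their counts in 6240 clusters that had over 95% of their counts in these libraries. The clusters were selected by that share and no other pair of libraries was examined in this way, so no comparison with other libraries is drawn. By the rule none of the 149 could be among those clusters. Without marifolium 12 and 18 the rule took 749 transcripts, 125 of them absent. Fewer marifolium libraries then have to lie below the others, so the 149 are among the 749 by construction.

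At the threshold, the separation between marifolium and the rest was narrow. The 3 reduced transcripts just inside the rule had a lowest other library at 1.006, 1.009 and 1.012 times the highest marifolium library, and the 3 clusters just outside had 0.9987, 0.9982 and 0.9936 times. By mean level, the 3 just inside had 1.006, 1.015 and 1.044 CPM over the 16 libraries, all 3 of them absent transcripts, and the 3 just outside had 0.993, 0.953 and 0.950 CPM. In all, 63 clusters separated in the same way had a mean under 1 CPM.

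**Figure D1:**
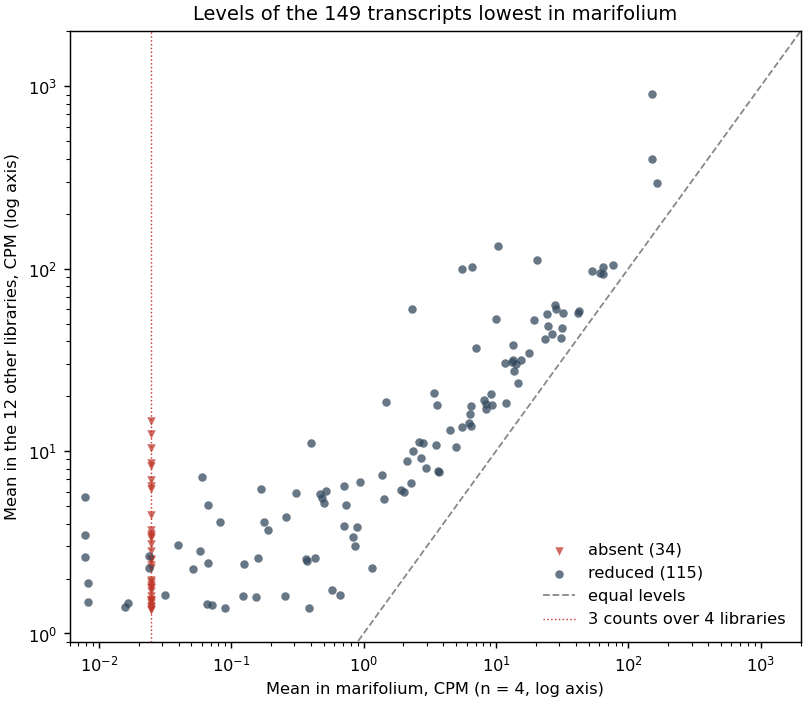
Mean level of each of the 149 transcripts in the 12 other libraries (vertical axis, CPM, log scale) against its mean in the 4 marifolium libraries (horizontal axis, CPM, log scale). Circles are the 115 reduced transcripts, and triangles are the 34 absent ones, drawn at 0.0246 CPM, the level that 3 counts over the 4 marifolium libraries would give; the dashed line marks equal levels, and every transcript lies above it.

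The absent transcripts were of low abundance and the reduced ones covered a much wider range, as the plot of the levels of the 149 shows. In the 12 other libraries the mean of the absent transcripts ran from 1.34 to 14.7 CPM with a median of 2.45, and 3 of the 34 exceeded 10 CPM. Set against 3 counts over the 4 marifolium libraries, they were at least 54.5-fold to at least 597-fold lower in marifolium, with a median bound of 99.7-fold. Reduced transcripts had a mean of 0.00791 to 164 CPM in marifolium (median 2.35) and of 1.37 to 910 CPM in the others (median 9.18). The mean of the others was 1.35 to 707 times the mean of marifolium, with a median of 4.13 times. That ratio was below 2 for 20 of the 115, from 2 to 4 for 36, from 4 to 10 for 20, from 10 to 100 for 32, and 100 or more for 7. The share of a library's counts that fell on reduced transcripts was 0.135% to 0.159% in marifolium, against 0.328% to 0.454% in the other libraries. Absent transcripts took 0.00938% to 0.0258% of the counts of the other libraries.

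The most abundant absent transcript, Cluster-3823.44903 with an assembled length of 1913 nt, was also the most even one. It had 0 counts in marifolium 12, 15, 17 and 18, and its 12 other libraries ran from 8.32 to 19.2 CPM with a median of 14.7. Andalusicum averaged 12.45 ± 3.16 CPM, molle 16.7 ± 3.12 CPM and origanifolium 14.98 ± 1.46 CPM (SD, n = 4 each), and these 3 overlapped. It was at least 597-fold lower in marifolium, and its coefficient of variation over the 12 others, 0.207, was the only one of the 34 below 0.3. Absent 3 had 10.3 ± 4.54 CPM in the others (SD, n = 12), with origanifolium 39 highest at 22.2 and origanifolium 33 lowest at 5.45, and was at least 420-fold lower in marifolium. Every one of its 12 other libraries thus lay far above the 0 counts of marifolium. Absent 8, at 6.23 ± 3.26 CPM, and absent 27, at 1.53 ± 0.794 CPM in the others, were among the 5 least variable as well, with no subspecies standing apart. They were at least 253-fold and at least 62.3-fold lower in marifolium.

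Many absent transcripts were uneven among the other subspecies. Only 11 of the 34 had at least 10 counts in each of the 12 other libraries, and 14 had 1 to 3 counts in at least 1 of them, a level at which presence and absence are hard to tell apart. For 16 of the 34 (47.1%) at least 1 other library lay below 10% of the transcript's median over the 12, against 4 of the 115 reduced transcripts (3.48%). Over the 23506 clusters with a mean of at least 1 CPM and counts in all 12 other libraries the share was 8.93%. The rule used the lowest of the 12 libraries, which for an absent transcript needed only 1 count and for a reduced one had to exceed every marifolium library, so nothing is read from this difference. Of the 27 pairs of a transcript and a library that lay so low, 15 were in origanifolium, 7 in molle and 5 in andalusicum. The same split was not computed over all clusters, so nothing about a subspecies is read from it.

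Absent 2 was low in 1 title code of molle as well. It had no count in marifolium. In molle, libraries 22 and 25 of 1 code had 0.674 and 1.11 CPM, and libraries 27 and 29 of the other code had 17.7 and 16.4 CPM. Its level was 15.8, 14.3, 17.6 and 18.4 CPM in andalusicum 1, 3, 6 and 8, and 8.89, 7.37, 16.5 and 14.4 CPM in origanifolium 31, 33, 38 and 39. The molle libraries therefore fell into a low and a high pair by code, and the high pair lay in the range of andalusicum. Absent 2 was the only absent transcript, and reduced 102 the only reduced one, for which both libraries of another subspecies' code lay below 10% of the median, against 0.693% of the 23506 clusters. By its mean over the 12 others it was at least 505-fold lower in marifolium. Absent 5 had 1 such low library, origanifolium 33 at 0.123 CPM, against 8.02 to 9.43 CPM in the other three of origanifolium.

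Several absent transcripts rested on a single library. Absent 4 stood at 3.83, 6.88, 88.0 and 0.406 CPM in origanifolium 31, 33, 38 and 39, and between 0.0300 and 1.38 CPM in the libraries of andalusicum and molle. Origanifolium 38 alone held 85.2% of its CPM summed over the 12 others, and also 75.2% of that of absent 6, at 62.4 CPM against a mean of 1.87 CPM in the other 11. Absent 13 was led by origanifolium 39 (22.4 CPM), absent 16 by molle 27 (16.8 CPM) and absent 34 by molle 25 (10.5 CPM). In all, 1 library held over 50% of the summed CPM for 5 of the 34 absent transcripts (14.7%) and for 1 of the 115 reduced ones (0.870%). Over the 23506 clusters with counts in all 12 the share was 0.902%. All of these absent transcripts, and the reduced one, reached the mean of 1 CPM only through the subspecies of that library. The rule thus took them for that high level, so nothing is read from this difference. For such a transcript the bound on the fold follows from that library, and the other 11 lie much nearer to the floor.

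**Figure D2:**
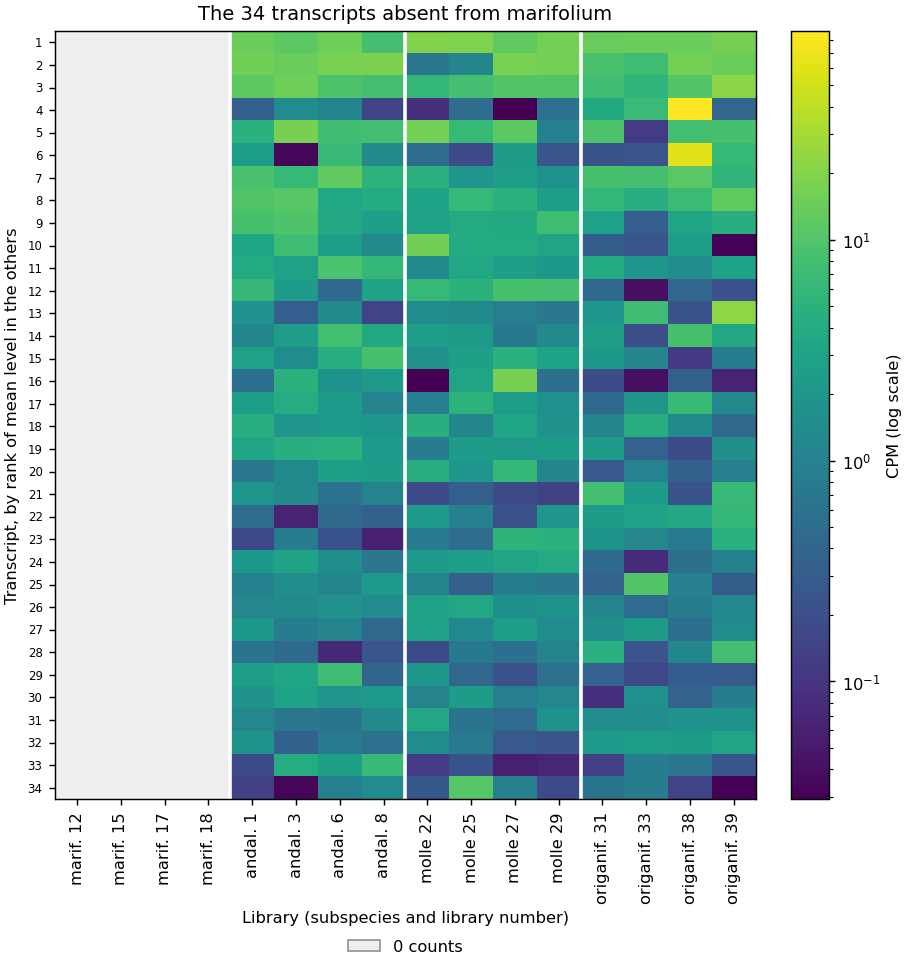
Level of the 34 absent transcripts (rows, by rank of mean level in the 12 others) in the 16 libraries (columns, marifolium first), in CPM on a log colour scale, with 0 counts in grey. The 4 marifolium columns are grey throughout, absent 1 is even across the other 12 columns, absent 2 is dark in molle 22 and 25 only, and absent 4 and 6 are bright in origanifolium 38.

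The most abundant reduced transcript was Cluster-3823.44857, with an assembled length of 839 nt. Marifolium 12, 15, 17 and 18 had 93.4, 269.8, 133 and 103 CPM, against 350 to 1618 CPM in the 12 others with a median of 903. Its mean was 149.8 ± 81.8 CPM in marifolium (SD, n = 4) and 910 ± 348 CPM in the others (SD, n = 12), which is 6.08 times the marifolium mean. The nearest libraries were marifolium 15 and andalusicum 6, and molle was the most even subspecies, at 1051 to 1229 CPM. Reduced 2 stood at 135, 119, 223 and 122 CPM in marifolium 12, 15, 17 and 18, against 266 to 538 CPM in the others, whose mean was 2.66 times that of marifolium. Reduced 3, of 1761 nt, stood at 171, 188, 133 and 165 CPM in marifolium, against 209 to 586 CPM in the others, 1.79 times the marifolium mean. In both, the higher end of marifolium came close to the lower end of the others. Reduced 5 averaged 20.5 ± 7.10 CPM in marifolium and 111 ± 61.9 CPM in the others, 5.41 times as much.

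Reduced 4 owed most of its mean elsewhere to 2 andalusicum libraries. Its level was 11.02, 10.99, 4.61 and 14.9 CPM in marifolium 12, 15, 17 and 18, against 23.1, 72.0, 546 and 603 CPM in andalusicum 1, 3, 6 and 8. Molle had 27.0 to 82.6 CPM and origanifolium 20.4 to 46.4 CPM. The high libraries, andalusicum 6 and 8, share a title code, and the 12 others had a median of 46.0 CPM beside a mean of 134 CPM.

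**Figure D3:**
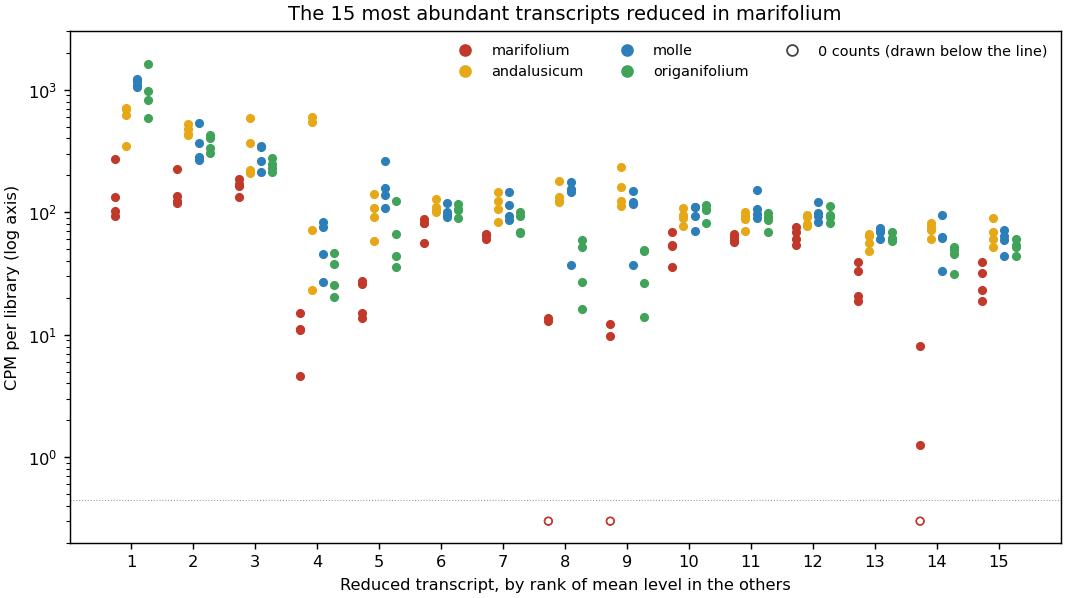
Level of the 15 most abundant reduced transcripts in each library (vertical axis, CPM, log scale), by rank of their mean in the 12 other libraries (horizontal axis), with 1 point per library and open circles for 0 counts. Marifolium lies below the other 3 subspecies in every column by the rule, by a wide gap for reduced 14 and a narrow one for reduced 6 and 12, and has open circles for reduced 8, 9 and 14.

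At the weak end, the reduced transcripts lay only slightly below the others but varied little. Reduced 25, of 4579 nt, had the smallest ratio, at 30.9 ± 1.83 CPM in marifolium (SD, n = 4) and 41.7 ± 6.35 CPM in the others (SD, n = 12), 1.35 times as much. Reduced 6 followed, at 77.0 ± 14.4 CPM in marifolium and 105 ± 11.4 CPM in the others. Reduced 16, at 42.7 ± 4.22 against 58.5 ± 9.002 CPM, reduced 18, of 1866 nt, at 41.4 ± 3.32 against 56.7 ± 6.88 CPM, and reduced 12, of 2104 nt, at 64.7 ± 9.45 against 93.3 ± 13.04 CPM, completed the 5 smallest. In these 5, except reduced 18, the highest marifolium library and the lowest of the others were separated by less than the SD of either group.

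At the strong end, the reduced transcripts were close to absent. The 5 with the largest ratios, reduced 74, 86, 92, 102 and 109, had 1 count each in the 4 marifolium libraries together. Reduced 74, of 2602 nt, had that count in marifolium 12 and stood at 5.60 ± 4.90 CPM in the others, from 1.37 to 16.9 CPM. From the pooled counts its level in the others was 682 times that in marifolium, with a 95% Poisson interval of 122 to 26950, so a single read sets the ratio. For reduced 86 the ratio was 424 (95% interval 76.0 to 16730). In all, 9 of the 115 had 3 or fewer counts in marifolium, and 63 had at least 10 counts in each marifolium library.

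Between absence and reduction lay transcripts that were absent from some marifolium libraries only. In 47 of the 115 reduced transcripts at least 1 marifolium library had 0 counts, and in 14 of them 3 did. Code 089 was the more frequent one at 0. Both of its libraries had 0 counts while at least 1 library of code 085 had counts in 22 of the 115 (19.1%), against 1.03% of the 23506 clusters with counts in all 12 others. With counts in both libraries of code 085 there were 10 (8.70%, against 0.804%). The opposite, 0 counts in both libraries of code 085, occurred in 4 of the 115 (3.48%, against 0.251%), 2 of them with counts in both libraries of code 089 (1.74%, against 0.149%). More frequent zeros than in all clusters follow from the rule, which takes transcripts low in marifolium. The split between the codes was unequal in those clusters too, with 241 at 0 in code 089 and 59 at 0 in code 085.

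Reduced 14 was 1 of 3 transcripts called between the codes. It had 0 counts in marifolium 12 and 15 (code 085), 1.27 and 8.01 CPM in marifolium 17 and 18 (code 089), and 31.2 to 95.3 CPM in the 12 others. The mean of code 089 was at least 95.5-fold above the floor of 3 counts over the libraries of code 085. The adjusted p was 0.0328 (edgeR quasi-likelihood test between codes, Benjamini-Hochberg). Reduced 65 stood at 2.56 and 1.19 CPM in code 085 and at 0 in both libraries of code 089, at least 37.6-fold higher in code 085 (edgeR adjusted p = 0.0288). Reduced 67 stood at 1.46 and 1.39 CPM in code 085 and at 0 in code 089, at least 28.5-fold higher (edgeR adjusted p = 0.0261). In the other 12 libraries reduced 65 and 67 ran between 2.09 and 13.1 CPM, and their lowest was 1.36 times the highest library of code 085 for reduced 65 and 1.44 times for reduced 67. These 3 of the 115 (2.61%) were called between the codes, 2 higher and 1 lower in code 085, against 0.0321% of 68593 clusters tested (0.0233% higher, 0.00875% lower). At an unadjusted p under 0.05 there were 20 of 115 (17.4%, against 7.30%). The rule used the marifolium levels that this test compares, so nothing about the reduced transcripts as a group is read from these shares. For the same reason the p-values of reduced 14, 65 and 67 are given as a description and are no independent support. When only clusters that reached 1 CPM in 8 or more libraries were tested, 6 of 100 transcripts were called, against 79 of 25466 clusters (0.310%). Without marifolium 17 the adjusted p was 0.0838 for reduced 65 and 0.0903 for reduced 67, and with only the 4 marifolium libraries in the model no cluster was called (all 3 at 0.622).

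Reduced transcripts as a whole leaned towards code 085, in values that the rule used and that are given as a description. The mean of code 085 was above that of code 089 in 84 of the 115 (73.0%), against 44.7% of 30991 clusters with counts in marifolium. Both libraries of code 085 lay above both of code 089 in 33 (28.7%, against 15.7%), and below both in 6 (5.22%, against 17.9%). The median log2 difference between code 085 and code 089 was 0.47 over the 115 and 0.00 over all clusters tested. The latter include clusters with a mean under 1 CPM and clusters with 0 counts in marifolium, whose difference is 0, so the medians are of unlike sets. With TMM scaling, which moved single marifolium libraries by −0.14 to 0.23 on the log2 scale, the share was 80.0% of the 115, against 54.3% of all, so the direction for all clusters turned with the scaling and that for the reduced transcripts did not. Marifolium 17 alone was lowest in 27 transcripts and marifolium 18 in 29, against 11 for marifolium 12 and 14 for marifolium 15. The matching shares over all clusters were not computed. Over the 23506 clusters with counts in all 12 others, 0 counts in marifolium 17 only or 18 only occurred in 655 and 713. For marifolium 12 only and 15 only the numbers were 90 and 106, so nothing about the reduced transcripts is read from their lowest libraries.

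Zeros did not always follow the codes. Reduced 8, of 3764 nt, stood at 12.9, 0, 13.7 and 0 CPM in marifolium 12, 15, 17 and 18, against 102 ± 59.8 CPM in the others (SD, n = 12). Reduced 9 stood at 9.75, 0, 12.2 and 0 CPM in the same libraries, against 99.1 ± 65.4 CPM in the others. The 2 transcripts were thus at 0 in the same libraries, 1 of each code. They kept nearly the same proportion elsewhere: over the 14 libraries with counts, reduced 9 was 0.747 to 1.29 times reduced 8, with a median of 0.912. They share no assembler gene name, and their likeness was noticed after their values were seen. Reduced 75 and 88 had the same pattern of zeros at lower levels, so it occurred in 4 of the 115 (3.48%), against 0.255% of the 23506 clusters. The rule takes transcripts low in marifolium, which makes any pattern of zeros there more frequent, so nothing is read from this difference.

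**Figure D4:**
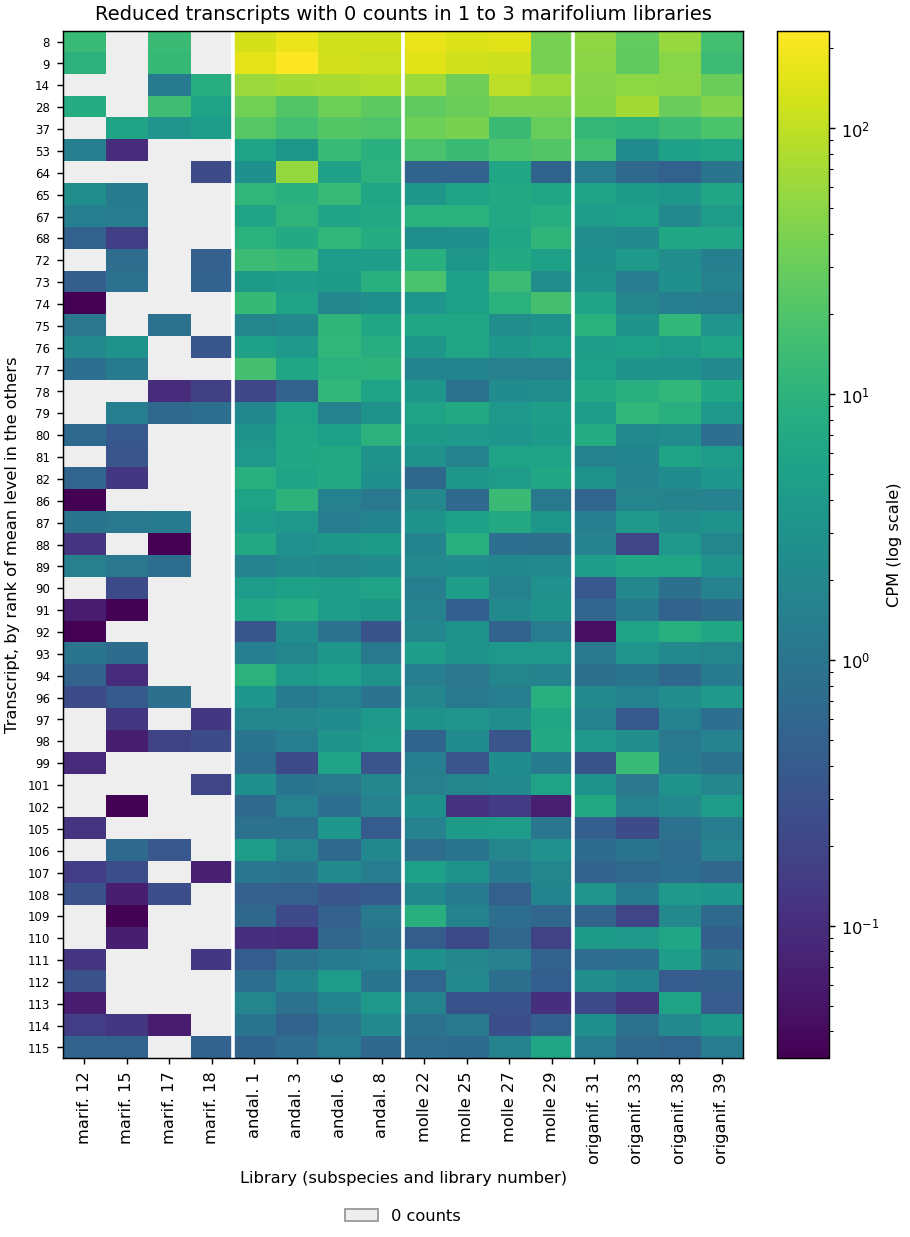
Level of the 47 reduced transcripts with 0 counts in 1 to 3 marifolium libraries (rows, numbered by rank among the 115) in the 16 libraries (columns, marifolium first), in CPM on a log colour scale, with 0 counts in grey. Grey cells are most frequent in marifolium 17 and 18, which share code 089; reduced 8 and 9 are grey in marifolium 15 and 18, and reduced 14 in marifolium 12 and 15.

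The rule did not compare andalusicum, molle and origanifolium with one another, but used their levels through the lowest library and through the mean of at least 1 CPM. That mean was reached only through the subspecies with the highest level in 43 of the 149, 21 absent and 22 reduced, and for these a difference among the 3 is no independent finding. All 149 transcripts passed the filter on low counts (filterByExpr). A difference among these 3 subspecies was called for 6 of the 149 (4.03%), against 3.52% of 46027 clusters tested (adjusted p under 0.05 by edgeR's quasi-likelihood F-test), and 28 (18.8%, against 21.9%) had an unadjusted p under 0.05. Between andalusicum and molle 1 was called, higher in andalusicum (0.671%, against 0.437% of all, 0.211% higher and 0.226% lower). Between andalusicum and origanifolium 1 was called, higher in andalusicum (0.671%, against 1.99%, 0.997% in each direction). Between molle and origanifolium 2 were called, both higher in molle (1.34%, against 1.54%, 0.839% higher and 0.704% lower). Unadjusted p-values under 0.05 numbered 16, 27 and 23 in these 3 comparisons (10.7%, 18.1% and 15.4%, against 14.6%, 19.3% and 17.9%). Among the 106 transcripts that reached the mean without their highest subspecies, 4 were called jointly and 1 in each pair. Unlike the 149, the clusters tested include some with a mean under 1 CPM. When only clusters that reached 1 CPM in 8 or more libraries were tested, 5 of 119 were called jointly, against 1193 of 25466 clusters. Because of the rule and of this unlike level, nothing about the 149 as a group is read from these shares. DESeq2 called 23 of the 149 jointly and 10.7% of all clusters. With libraries sharing a code added together, edgeR called none of the 149 (18 at an unadjusted p under 0.05) and 2 of all 68481 clusters tested. The libraries within a subspecies varied widely, with a common biological coefficient of variation of 105%.

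Reduced 40, of 1151 nt, had the smallest p among the 3 other subspecies. Marifolium 12, 15, 17 and 18 had 0.728, 3.31, 1.17 and 0.716 CPM. Andalusicum had 55.9, 22.4, 35.2 and 39.6 CPM, molle had 4.51, 3.57, 3.49 and 4.87 CPM, and origanifolium had 14.5, 5.20, 20.2 and 13.5 CPM. The levels formed 4 steps, with marifolium lowest, then molle, origanifolium and andalusicum, and no library of 1 step overlapped the next. The log2 difference between andalusicum and molle was 3.09 ± 0.55 (SE, edgeR adjusted p = 0.0212), and the adjusted p over the 3 subspecies together was 0.0143. Neighbouring steps were not called, at an edgeR adjusted p of 0.142 between andalusicum and origanifolium and of 0.117 between molle and origanifolium. The joint call was kept without any single library and lost when libraries sharing a code were added together (0.198). The call between andalusicum and molle was lost without andalusicum 1 or 8 or any single molle library, at adjusted p-values of 0.0508 to 0.0853.

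Reduced 30 and 59 were highest in molle. Reduced 30 stood at 18.3, 17.9, 13.4 and 12.2 CPM in marifolium, 20.3 to 34.8 CPM in andalusicum, 44.4 to 54.1 CPM in molle and 19.0 to 24.2 CPM in origanifolium. All 4 molle libraries lay above the rest, and andalusicum and origanifolium overlapped. The log2 difference between molle and origanifolium was 1.19 ± 0.25 (SE, edgeR adjusted p = 0.0273, joint 0.0193). Reduced 59 averaged 2.13 ± 0.370 CPM in marifolium, against 6.56 ± 2.63 CPM in andalusicum, 14.4 ± 1.43 CPM in molle and 5.50 ± 1.13 CPM in origanifolium (edgeR joint adjusted p = 0.0443). For reduced 30 the joint call was lost without molle 22, 25 or 29 or origanifolium 33 or 39 (0.0510 to 0.0593), and the call between molle and origanifolium without any single library of either (0.0642 to 0.0976). The joint call of reduced 59 was lost without 14 of the 16 libraries in turn, all but marifolium 17 and 18, at 0.0560 to 0.122.

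Absent 12 was also highest in molle and was nearly absent from origanifolium. It had 0 counts in marifolium, 6.03, 2.38, 0.445 and 2.97 CPM in andalusicum, 6.30, 5.02, 8.62 and 8.21 CPM in molle, and 0.451, 0.0409, 0.418 and 0.218 CPM in origanifolium. All molle libraries lay over 10 times above the highest of origanifolium, and andalusicum overlapped both. It and absent 4, which was led by origanifolium 38, were among the 6 joint calls. Without their highest subspecies their means over the 16 libraries would be 0.810 CPM for absent 12 and 0.262 CPM for absent 4, so the rule took them for that high level and no test of it is given. The remaining joint call rested on 1 code. Reduced 4 was higher in andalusicum than in origanifolium, by 3.20 ± 0.79 on the log2 scale (SE, edgeR adjusted p = 0.0486, joint 0.0418), through andalusicum 6 and 8. Both of its calls were lost without any of 13 libraries, all but andalusicum 1 and 3 and marifolium 17 (0.0511 to 0.137).

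Across the 149, origanifolium was most often next above marifolium, a description of levels that the rule used in part. It had the lowest mean of the other 3 subspecies in 71 transcripts (47.7%), molle in 46 (30.9%) and andalusicum in 32 (21.5%). Over all 32213 clusters the shares were 33.6% for origanifolium, 35.6% for molle and 30.8% for andalusicum. Andalusicum had the highest mean in 64 (43.0%, against 38.6% of all), molle in 48 (32.2%, against 26.4%) and origanifolium in 37 (24.8%, against 35%). All 4 andalusicum libraries lay above all 4 of origanifolium in 23 transcripts (15.4%, against 7.79%) and below them in 6 (4.03%, against 6.98%). Andalusicum lay above molle in this way in 9 (6.04%, against 5.54%) and below it in 4 (2.68%, against 3.53%), and molle above origanifolium in 14 (9.40%, against 6.11%) and below it in 12 (8.05%, against 7.61%). The median log2 difference over the 149 was 0.19 between andalusicum and origanifolium, 0.24 between molle and origanifolium and 0.04 between andalusicum and molle. Over all clusters tested, which include clusters with a mean under 1 CPM, it was −0.02, −0.03 and 0.01. The lowest library of the 12 was origanifolium 33 in 24 transcripts and origanifolium 39 in 20, the most frequent ones. The rule used that lowest library and the shares over all clusters were not computed, so nothing is read from these numbers.

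A transcript can be low in marifolium while another version from the same assembled gene is not. The assemblers gave 32 of the 149 (21.5%) a gene name that other counted clusters carry too, close to the 20.9% of all clusters with a mean of at least 1 CPM. These were 5 absent and 27 reduced transcripts, and none of the linked clusters was itself among the 149. For 4 of the 5 absent and 16 of the 27 reduced transcripts the linked clusters together averaged at least 1 CPM in marifolium, so RNA under the same gene name was present there. Summed with its linked clusters, 1 of the 5 absent and 12 of the 27 reduced transcripts were still lowest in marifolium. Over the 32, the marifolium mean was 17.1% of that of the others for the transcript alone, 70.5% for the linked clusters and 42.1% for the sum, as medians. In no case did the linked clusters lie higher in all 4 marifolium libraries than in all 12 others.

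The linked clusters of absent 21, of 3803 nt, stood at 27.2 ± 7.27 CPM in marifolium and 34.9 ± 12.2 CPM in the others, whereas absent 21 itself had no count in marifolium and averaged 1.91 ± 2.64 CPM elsewhere. The linked cluster of absent 4 had 3.04 ± 4.26 CPM in marifolium and 1.19 ± 1.00 CPM in the others, which overlapped. For reduced 5, the linked cluster stood at 57.0 to 102 CPM in marifolium and at 31.9 to 420.3 CPM in the others. Reduced 21, of 5901 nt, had 19.4 ± 3.54 CPM in marifolium and 52.0 ± 19.2 CPM in the others, and its linked clusters were lower in marifolium as well, at 33.9 ± 6.85 against 59.1 ± 17.4 CPM. The linked cluster of reduced 33 stood at 33.5 ± 13.5 CPM in marifolium and 50.5 ± 12.9 CPM in the others. For reduced 104, of 476 nt, the sum in marifolium was 102% of that in the others, the highest of the 32. The linked mean was higher in marifolium than in the others for 8 of the 32, up to 683% for reduced 81. It was a smaller percentage of the others than the transcript itself for 4, down to 0% for reduced 51, 78 and 92. For reduced 81, 51 and 92 the linked clusters were small beside the transcript in the others. The sum with them was 14.6% for reduced 81, against 2.02% alone, and 34.3% for reduced 51, against 34.4% alone. For reduced 92 it was 0.296%, against 0.303% alone. For reduced 78, whose linked cluster was less small, the sum was 1.04%, against 1.32% alone.

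**Figure D5:**
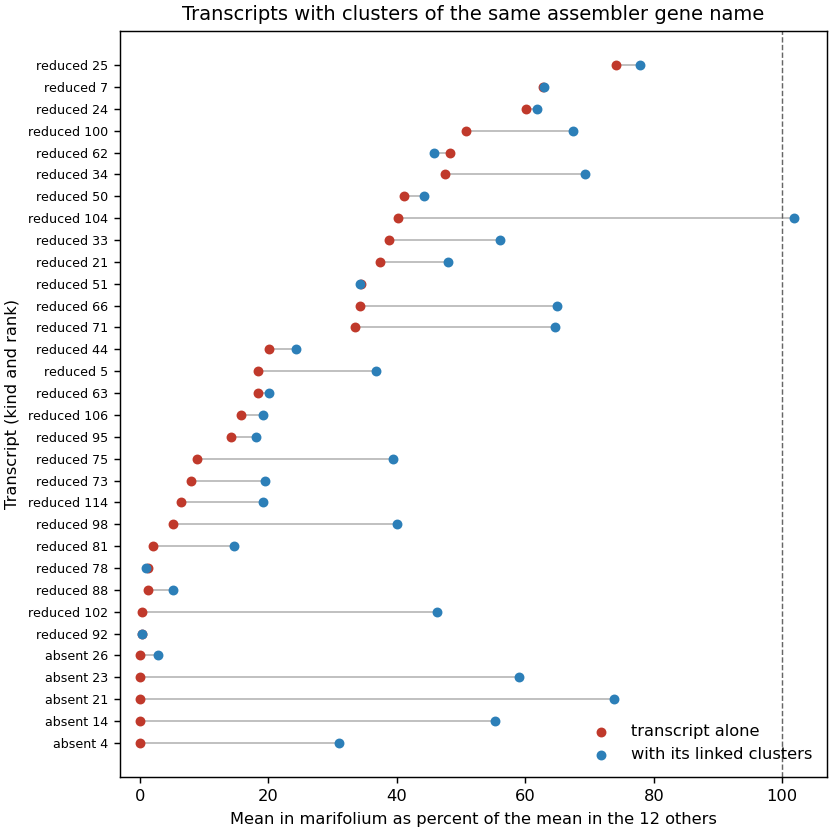
Marifolium mean as a percentage of the mean of the 12 other libraries (horizontal axis) for the 32 transcripts with linked clusters (rows), for the transcript alone (red) and for its sum with the linked clusters (blue). The sum is farther right than the transcript alone in most rows, and reaches 102% for reduced 104 and 73.7% for absent 21, against 2.80% for absent 26.

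In assembly features, which the rule did not use, the 149 were close to clusters in general. They held 1 assembled transcript in 143 cases (96.0%, against 95.2% of clusters with a mean of at least 1 CPM). Names of the form that Trinity writes made up 99 (66.4%, against 61.5%), and names of the form that Oases writes 49 (32.9%, against 36.4%). A length is part of the name for 50 of them, with a median of 1598.5 nt, against 1462 nt. Absent transcripts with a length, 12 of the 34, had a median of 1245.5 nt, and the 38 reduced ones a median of 1771.5 nt. The level and spread over the 12 other libraries, which the rule used in part, are given as a description. The median level was 6.232 CPM for the 149 and 6.225 CPM for all. Their coefficient of variation over those libraries had a median of 0.545, against 0.581, and was below 0.3 in 36 (24.2%, against 16.8%).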

How the data were processed

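Leaf poly-A RNA of 16 libraries, 4 for each subspecies, was sequenced, per the labels. The authors deposited raw counts, whole numbers for each library and transcript cluster, together with a list assigning transcript names to clusters. The counts were used as deposited. FastQC was used, per the submitters' processing notes. The sources used here do not name the assembler, clustering tool, aligner or counter, or say whether counting used strand, so antisense transcripts cannot be told apart, and reads shared by alleles, paralogs or split clusters may have been divided. All columns matched a library by title (0 unmatched). Libraries of 1 subspecies always differed by more than sampling noise (chi-square per degree of freedom 75.4 to 192).

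CPM used column totals (pandas 2.3.3, numpy 2.4.6, Python 3.11.15). Tests ran in R 4.3.3 with edgeR 4.0.16 (TMM, filterByExpr, quasi-likelihood F-test, Benjamini-Hochberg over all clusters tested) on all 16 libraries, by subspecies (46027 clusters) or by 8 title codes (68593); DESeq2 1.42.0 and limma 3.58.1 were alternatives. On counts simulated from these libraries, the joint test recovered 72.0% of planted 64-fold increases and 26.0% of such decreases, and the test of codes 26.0% and 34.0%. Folds against 0 counts use a floor of 3 counts, and Poisson intervals are at 95%; both cover counting error only. Clusters were linked by assembler gene names held by at most 20 clusters, a limit chosen after seeing the data.

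The transcripts and the rule for naming them were chosen with earlier results of these data known. The rule took the 5 absent transcripts highest in the others and the 5 least variable, the 5 reduced ones highest in the others and those with the 5 largest and 5 smallest ratios, the 3 smallest joint p-values, and the 3 with the most linked CPM in marifolium. Others are named for their calls or as extremes, after their values were seen. Identifiers are printed for the most abundant absent and reduced transcript.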

Additional observations from a re-analysis of the deposited data

Results flagged for a closer look

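In all, 107 groups of 4 libraries of 1 subspecies were examined. They covered 27 named transcripts and the shares of counts that fell on the absent and on the reduced transcripts. A group was flagged where the gap of 1 library to its nearest neighbour exceeded Dixon's 95% critical value, taken as a share of the range of the group. Flagged were 15 groups, all of named transcripts, 14 of them by a high library. Chance gives such a gap in about 1 in 20 groups, and groups with a single count always show it. The gap was 0.926 of the range for absent 4 in origanifolium, where library 38 stood at 88.0 CPM and the others at 0.406 to 6.88 CPM. It was 0.849 for absent 5 in origanifolium, where library 33 was low at 0.123 CPM and the others at 8.02 to 9.43 CPM. In marifolium it was 0.842 for reduced 2, with library 17 at 223 CPM and the others at 119 to 135 CPM. It was 1.000 in marifolium for reduced 74, 86 and 92 (1 count in library 12) and for reduced 102 and 109 (1 count in library 15).

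Among the other subspecies, molle 22 stood high for reduced 102 (0.970), reduced 109 (0.867) and reduced 16 (0.931), and molle 27 for reduced 86 (0.893). Origanifolium 31 stood high for reduced 74 (0.901) and reduced 18 (0.876), and origanifolium 39 for reduced 33 (0.879), at 70.6 CPM against 18.9 to 25.2 CPM.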

How the results depend on the processing

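The number of transcripts lowest in marifolium was within 1.5 times of 149 with TMM scaling (161, of which 126 shared), DESeq2 size factors (146, of which 125 shared), thinning to equal depth (149, of which 133 shared), another minimum of the mean CPM and sums over assembler gene names (137). Leaving out 1 library in turn gave 157 to 339 transcripts, 32 to 65 absent and 123 to 275 reduced. The highest numbers came without marifolium 12, 15, 17 or 18 (339, 308, 321 and 272), since fewer libraries then have to lie below. Without marifolium 12 and 18 there were 749, 125 absent and 624 reduced. The absent ones numbered 56 at a mean of at least 0.5 CPM, 15 at 2 CPM and 74 with no minimum beyond filterByExpr. Calls among andalusicum, molle and origanifolium depended on the tool. DESeq2 called 23 of the 149 jointly (10.7% of all clusters), 9 between andalusicum and molle (5.87%), 14 between andalusicum and origanifolium (10.1%) and 18 between molle and origanifolium (8.65%), and 12 of 115 between the marifolium codes (3.07%). Limma voom, which took the code as random block, called 3, 4 and 4 in the 3 pairs (2.37%, 4.97% and 3.51% of all). With the libraries of each code summed all 4 counts were 0, and 2, 1, 0 and 5 of all 68481 clusters were called. With only the libraries compared they were 12, 2, 8 and 4 (5.88%, 1.83%, 5.41% and 4.6% of all), and 0 between codes, where no cluster was called. Without a filter they were 3 jointly (0.945% of all), 0 between andalusicum and origanifolium (0.464%), 0 between molle and origanifolium (0.416%) and 5 between codes (0.343%). With at least 1 CPM in 8 libraries they were 3 between andalusicum and origanifolium (3.83%) and 6 between codes (0.310%). Without marifolium 12 and 18 they were 3 jointly (2.02%) and 0 between andalusicum and origanifolium (1.16%). Leaving out 1 library gave 1 to 6 jointly, 0 to 1, 0 to 1 and 0 to 3 in the pairs, and 1 to 5 between codes, where a code left with 1 library is assumed to vary like the others. Of 96 joint adjusted p-values of reduced 4, 30, 40 and 59 under an alternative, 53 stayed under 0.05 and 43 lost the call. In the pairs, the call of reduced 40 between andalusicum and molle was kept in 17 alternatives and lost in 7. That of reduced 30 between molle and origanifolium was kept in 14 and lost in 10. That of reduced 4 between andalusicum and origanifolium was kept in 6 and lost in 18. No direction changed. The code tests of reduced 14, 65 and 67 are left out, since the rule used the levels they compare. The cause was not tested. Depth limits transcripts with few counts in marifolium, where 1 read sets the ratio. No paired analysis was possible because the library numbers are not shared between subspecies.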
